A study of Homo sapiens with 11 samples.

Results

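RNA of HEK293T cells that had received the compound A8 together with ISRIB was set against RNA of cells that had received only DMSO, the vehicle. The question was how far the combined treatment stood at, above or below the vehicle state. The comparison used 6 of the 11 libraries of the series, chosen by the treatment in their labels, with 3 of A8+ISRIB and 3 of DMSO. HEK293T is an established line from human embryonic kidney in which the SV40 large T antigen is expressed, although the growth protocol writes HEK293. A8 was given at 10 µM, and the labels give no dose of ISRIB. The titles state 8 h of treatment and the treatment protocol 4 h, for all groups, so the time is not settled. The series also holds 3 libraries of A8 alone at 10 µM and 2 of DMSO+ISRIB, which are given beside the comparison where they bear on it. Polyadenylated RNA was sequenced, and the values are read counts per gene. The design text calls the replicates biological, but nothing says whether they came from separate days, so p-values measure the spread between these libraries.

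The integrated stress response starts when kinases phosphorylate the translation factor eIF2, which lowers general translation while the transcription factor ATF4 is made. ATF4 switches on genes of amino acid synthesis, amino acid transport and tRNA charging, and genes such as CHAC1 and DDIT4. ISRIB binds eIF2B, the exchange factor of eIF2, and keeps it active when eIF2 is phosphorylated. TXNIP and ARRDC4, both alpha-arrestins, are known targets of the glucose-sensing transcription factor MondoA and are listed here apart from that programme.

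The 11 libraries held between 34072107 and 35318111 counts, with 17892 to 18017 genes detected in each. Levels are counts scaled by TMM-adjusted library totals (CPM), and 3 counts, the limit that a count of 0 allows, came to 0.0837 to 0.0939 CPM. This limit covers counting error only. All 10 markers chosen for HEK293 cells passed the filter on low counts, and their summed level was 1151 to 1263 CPM in A8+ISRIB and 1125 to 1209 CPM in DMSO. Of 16 markers of other cell types, 4 passed the filter (HBA1, COL3A1, COL1A1 and CD14), and PTPRC, CD3E, HBB, PECAM1 and KRT5 had 0 counts in all 11 libraries. The summed level of the 16 was 19.4 to 21.4 CPM in A8+ISRIB and 21.1 to 24.4 CPM in DMSO. A8+ISRIB library 3 stood apart from the other libraries of its group. Genes encoded by mitochondrial DNA took 12.6% of its counts, against 9.39% and 9.74% in A8+ISRIB libraries 1 and 2, and 7.97%, 7.39% and 9.74% in the DMSO libraries. The TMM factor of that library was 0.938, against 1.02 and 1.00 in the other libraries of the group. Across 13688 genes with a known GC content of the transcript, the log2 fold change of A8+ISRIB over DMSO had a Spearman correlation of -0.19 with GC. The correlation was stronger for A8 (-0.30) and DMSO+ISRIB (-0.49) over DMSO. For the A8 effect with ISRIB minus that without it, the correlation was 0.47. These values are a description across genes, which are not replicates.

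With both compounds present, the transcriptome stood close to vehicle, and 3 genes were below it. At a threshold of 0.05 on the adjusted p of edgeR's quasi-likelihood test, 0 of 15591 genes were called higher (0%) and 3 lower (0.0192%), namely TXNIP, SLC6A9 and TPRA1. At an unadjusted p under 0.05, 570 genes were higher (3.66%) and 630 lower (4.04%). With DESeq2's Wald test the calls numbered 11 higher and 21 lower, and besides the 3 these included ARRDC4, DOK3, PSAT1 and SRSF11 on the low side and DCTD, EIF2AK1, EIF4A2, JUN, KLF10 and ZCCHC12 on the high side. The authors' deposited table lists 4 higher and 4 lower, and the 3 genes called here are among the lower ones. Of the 4 higher, KTI12 (log2 fold change 19.1) had 0, 145 and 151 counts in A8+ISRIB and 0 in each DMSO library. It had 148, 131 and 0 counts in A8 and 0 and 153 in DMSO+ISRIB, so its counts were at 0 or high within a group. Fitted on the 6 libraries alone, edgeR's test called 0 genes in either direction (887 at an unadjusted p under 0.05), and it called 0 without A8+ISRIB library 2 (921). Since a missed threshold does not show a return to vehicle, the 95% interval of each log2 fold change was also set against a margin of 0.5 on either side of 0. The whole interval lay within that margin for 10616 genes (68.1%), and for 10218 of the 10941 genes whose log2 CPM averaged 2 or more (93.4%). A8 alone against the same DMSO libraries gave 13 genes called higher (0.0834%) and 9 lower (0.0577%). DMSO+ISRIB against them gave 0 in each direction by edgeR's test, with 1494 genes (9.58%) at an unadjusted p under 0.05 and 1 higher and 7 lower in the authors' deposited table. Those 7, with their deposited log2 fold changes, were CHAC1 (-0.97), SLC6A9 (-0.77), DDIT4 (-0.73), STC2 (-0.50), PBX2 (-0.41), SESN2 (-0.40) and NBL1 (-24.4). In bulk RNA, fewer cells that express a gene and less RNA per cell cannot be told apart.

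**Figure D1:**
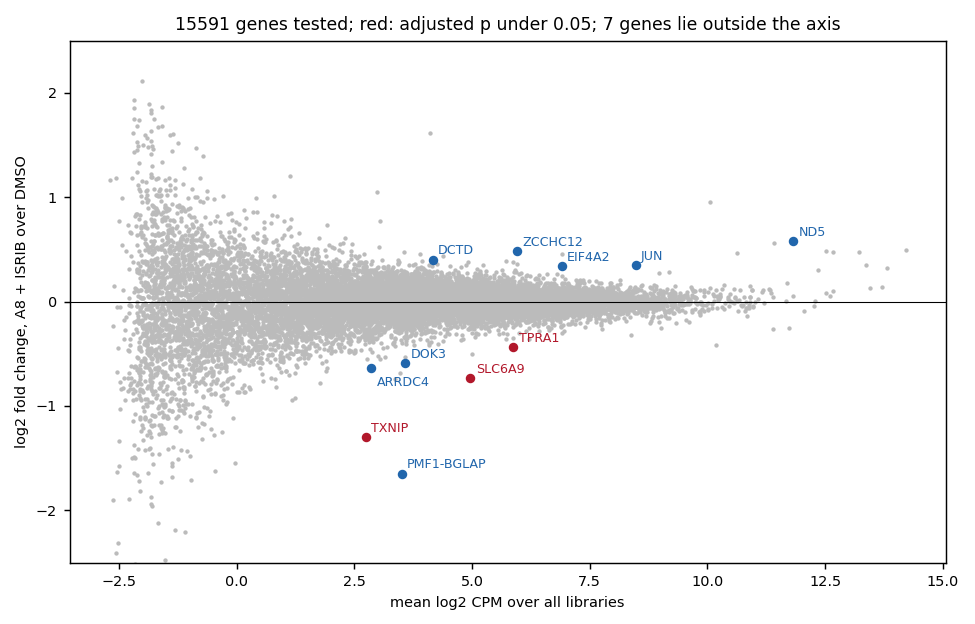
Log2 fold change of A8+ISRIB over DMSO (vertical axis) against the mean log2 CPM over all libraries (horizontal axis), with 1 point per gene tested. Red points are the 3 genes called, all lower, blue points are other genes among those with the smallest p in each direction, and 7 genes lie outside the vertical range of 2.5.

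The first gene below vehicle was TXNIP, an alpha-arrestin that binds thioredoxin and restrains glucose uptake. It had 2.98, 3.83 and 4.79 CPM in A8+ISRIB, against 9.10, 10.4 and 8.97 CPM in DMSO. Every A8+ISRIB library lay below every DMSO library. The level with both compounds was 0.407 of vehicle, a log2 fold change of -1.30 (SE 0.15, 95% interval -1.62 to -0.98, adjusted p = 0.00277 by edgeR's quasi-likelihood test). A8 alone gave 4.93, 4.13 and 3.91 CPM, and DMSO+ISRIB gave 9.39 and 10.5 CPM. The libraries with A8 were thus all low and those without A8 all high. The log2 fold change of A8+ISRIB over A8 was -0.17 (95% interval -0.50 to 0.17, adjusted p = 0.95 by edgeR). Over DMSO+ISRIB it was -1.37 (95% interval -1.72 to -1.02, adjusted p = 0.00412 by edgeR). TXNIP was the gene called lower in that comparison, where 0.00641% of genes were called in each direction.

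ARRDC4, an alpha-arrestin close to TXNIP in sequence, had 5.88, 4.91 and 6.01 CPM in A8+ISRIB and 9.07, 7.60 and 9.48 CPM in DMSO. The libraries did not overlap, but the gene missed the threshold, with a log2 fold change of -0.64 (95% interval -0.90 to -0.38, adjusted p = 0.197 by edgeR). A8 alone gave 5.16, 5.80 and 5.36 CPM and DMSO+ISRIB 10.3 and 9.53 CPM, so that here too every library with A8 lay below every library without it. Fitted without the filter on low counts, edgeR's test called ARRDC4 lower (adjusted p = 0.00781), as did DESeq2's Wald test (adjusted p = 0.00723). EdgeR's test on the 6 libraries alone did not call it (adjusted p = 0.73), nor did the authors' deposited DESeq2 table (adjusted p = 0.415). Of the other 10 genes listed around MondoA and the alpha-arrestins, 0 were called by edgeR's test. Over all 12, 1 was higher and 3 lower at an unadjusted p under 0.05. The third of the lower ones, beside TXNIP and ARRDC4, was MLXIPL, which encodes ChREBP, a paralogue of MondoA that also responds to glucose. It had 8.03, 8.59 and 8.08 CPM in A8+ISRIB and 9.67, 10.9 and 8.91 CPM in DMSO, without overlap, at a log2 fold change of -0.26 (95% interval -0.49 to -0.02, adjusted p = 0.598 by edgeR). A8 alone stood at -0.08 and DMSO+ISRIB at -0.28 over DMSO. MLXIP, which encodes MondoA, had a log2 fold change of 0.07, and its partner MLX 0.02, both with intervals inside the margin. ARRDC3 stood at 0.24 (95% interval -0.25 to 0.73) and ARRDC2 at 0.16. KLF10, a zinc-finger repressor that is also regulated by sugar, stood at 0.35 (95% interval 0.17 to 0.54, adjusted p = 0.348 by edgeR), and the authors' deposited table calls it higher. Of the 12, 7 were above 0 and 5 below, and the median was 0.01 against 0.00 over all genes tested.

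MondoA works with MLX at pairs of E-boxes, and the sequences upstream of both alpha-arrestins are shown for that reason. They are the 250 bases before the RefSeq gene start on GRCh38.p14, whereas the counts were made on GRCh37. TXNIP lies at chr1:145996580-145996829 on the minus strand and ARRDC4 at chr15:97960453-97960702 on the plus strand. Capitals mark a pair of degenerate E-boxes (CACGNG, with 5 bases between the copies) in TXNIP, 88 to 72 bases before the start, and an E-box (CACGTG) in ARRDC4, 210 to 205 bases before it.
TXNIP: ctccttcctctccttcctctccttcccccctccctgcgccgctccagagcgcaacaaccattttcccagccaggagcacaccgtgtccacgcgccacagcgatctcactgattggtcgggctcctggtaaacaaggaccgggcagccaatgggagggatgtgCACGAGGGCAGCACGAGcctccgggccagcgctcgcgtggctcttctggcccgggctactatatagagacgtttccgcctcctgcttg
ARRDC4: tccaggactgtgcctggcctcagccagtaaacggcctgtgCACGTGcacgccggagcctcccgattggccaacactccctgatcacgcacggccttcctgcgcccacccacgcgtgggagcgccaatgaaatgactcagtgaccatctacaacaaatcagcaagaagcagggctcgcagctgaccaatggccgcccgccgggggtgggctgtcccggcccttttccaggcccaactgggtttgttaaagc
On either strand, the E-box was found in 2228 of 35116 such windows (6.34%), and the degenerate pair, a form written down after the TXNIP window had been read, in 16 (0.0456%). The pair with both copies as CACGTG was found in 1 window (0.00285%). Among the 34 named genes with a window, the E-box was found in 4, which were ARRDC4, ATF4, DOK3 and TPRA1, and of these ATF4 stood at vehicle. A gene counted if any of its windows matched, so this count is not on the scale of the share of windows. A match describes the letters of the window and is no evidence of binding.

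TPRA1, a transmembrane protein, had 49.1, 51.1 and 53.5 CPM in A8+ISRIB and 73.2, 68.3 and 66.3 CPM in DMSO. The groups did not overlap, and the log2 fold change was -0.43 (SE 0.07, 95% interval -0.58 to -0.29, adjusted p = 0.036 by edgeR). A8 alone gave 54.7, 51.9 and 52.7 CPM and DMSO+ISRIB 65.5 and 58.8 CPM, so the A8 libraries were low and those of DMSO+ISRIB lay between. This call was the least secure of the 3: leaving out any 1 of A8+ISRIB libraries 1 and 2, A8 libraries 1, 2 and 3, DMSO+ISRIB library b or any DMSO library ended it, with adjusted p up to 0.294. Among fits with 1 library left out, TXNIP lost its call only without A8+ISRIB library 2, at an adjusted p of 0.0557 by edgeR.

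SLC6A9, a glycine transporter and a target of ATF4, differed from TXNIP and TPRA1 in the libraries that were low. It had 16.8, 17.96 and 17.2 CPM in A8+ISRIB, against 25.5, 29.3 and 31.4 CPM in DMSO. The level with both compounds was 0.602 of vehicle, a log2 fold change of -0.73 (SE 0.10, 95% interval -0.95 to -0.51, adjusted p = 0.0168 by edgeR). A8 alone gave 65.8, 55.1 and 50.1 CPM, and DMSO+ISRIB 15.9 and 17.8 CPM. The libraries with ISRIB were low whether or not A8 was present, and those of A8 alone were high. Over A8, A8+ISRIB stood at -1.72 (SE 0.10, adjusted p = 1.29e-07 by edgeR), and over DMSO+ISRIB at 0.04 (95% interval -0.21 to 0.29). SLC6A9 was no longer called without A8+ISRIB library 1 or 2, or DMSO library 2 or 3, with adjusted p up to 0.182.

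**Figure D2:**
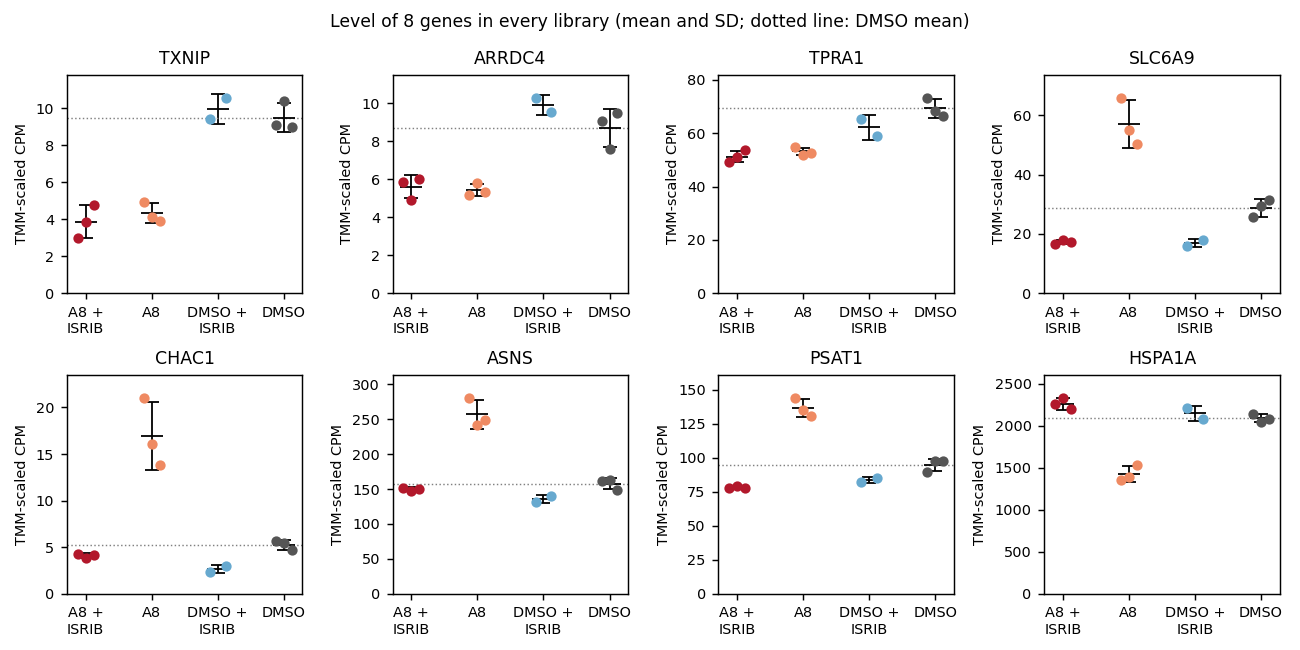
TMM-scaled CPM (vertical axes) of 8 genes in every library of A8+ISRIB, A8, DMSO+ISRIB and DMSO, with the mean and SD over libraries and the DMSO mean as a dotted line. TXNIP, ARRDC4 and TPRA1 stay low with both compounds, SLC6A9 lies at 16.8 to 17.96 CPM with both compounds, below all DMSO libraries, and ASNS and HSPA1A lie close to the DMSO line.

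The 22 genes called in A8 against DMSO show where the effect of A8 stood once ISRIB was present. They were chosen with the same DMSO libraries, so their A8 values are a description only. Their A8+ISRIB values are set over those DMSO libraries too, so they are not independent of that choice. Of the 13 called higher with A8 alone, 9 had their whole interval within the margin in A8+ISRIB, 1 was below vehicle (SLC6A9) and 3 were undecided. Their median log2 fold change was -0.08 in A8+ISRIB, 0.84 in A8 and -0.22 in DMSO+ISRIB, each over DMSO. ASNS, asparagine synthetase, had 152, 147 and 150 CPM in A8+ISRIB, 280, 242 and 249 CPM in A8, 131 and 140 CPM in DMSO+ISRIB, and 161, 163 and 149 CPM in DMSO. The A8+ISRIB and DMSO libraries of ASNS overlapped, at a log2 fold change of -0.07 (95% interval -0.21 to 0.06). MTHFD2, a mitochondrial folate enzyme, stood at -0.08, CTH, which makes cysteine, at -0.05, and STC2, a secreted glycoprotein, at -0.06. GARS and CARS, which charge tRNAs with glycine and cysteine, stood at 0.04 and -0.06. All 5 lay within the margin.

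Some of these genes lay a little under vehicle with non-overlapping libraries, without being called. PSAT1, an enzyme of serine synthesis, had 77.5, 79.2 and 77.7 CPM in A8+ISRIB and 89.4, 97.3 and 97.2 CPM in DMSO, a log2 fold change of -0.28 (95% interval -0.40 to -0.15, adjusted p = 0.284 by edgeR). PCK2, which makes phosphoenolpyruvate in mitochondria, had 23.5, 22.5 and 25.1 CPM in A8+ISRIB and 27.6, 28.0 and 26.99 CPM in DMSO (log2 fold change -0.22). SESN2, which restrains mTORC1 when leucine is short, had 83.1, 75.2 and 68.6 CPM in A8+ISRIB and 88.0, 84.4 and 83.9 CPM in DMSO (log2 fold change -0.18). In each of the 3 genes every A8+ISRIB library was below every DMSO library, yet the interval stayed within the margin.

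CHAC1, which degrades glutathione, was undecided. It had 4.29, 3.86 and 4.16 CPM in A8+ISRIB, 21.0, 16.04 and 13.8 CPM in A8, 2.34 and 2.99 CPM in DMSO+ISRIB, and 5.62, 5.40 and 4.64 CPM in DMSO. Its A8+ISRIB libraries were all under those of DMSO and all above those of DMSO+ISRIB. The log2 fold change over DMSO was -0.35 (95% interval -0.68 to -0.01, adjusted p = 0.63 by edgeR), and over DMSO+ISRIB it was 0.62 (95% interval 0.21 to 1.03, adjusted p = 0.414 by edgeR). NUPR1, a stress-induced nuclear protein, was near 1 CPM, with 0.781, 1.11 and 0.845 CPM in A8+ISRIB and 1.11, 1.21 and 0.683 CPM in DMSO, which leaves an interval of -0.74 to 0.47. ZC3H6, a zinc-finger protein, was the 1 of the 13 with all A8+ISRIB libraries above DMSO, at 2.40, 2.16 and 2.13 CPM in A8+ISRIB and 1.54, 1.58 and 1.20 CPM in DMSO (log2 fold change 0.63, adjusted p = 0.496 by edgeR).

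ATF4 acts at C/EBP-ATF response elements, and the windows of 3 genes with different end points are shown to compare their letters. SLC6A9 (chr1:44031463-44031712, minus strand) ended below vehicle, ASNS (chr7:97872409-97872658, minus strand) at it and CHAC1 (chr15:40953221-40953470, plus strand) undecided, all on GRCh38.p14 in RefSeq. Capitals mark the element TGATGNAA on either strand.
SLC6A9: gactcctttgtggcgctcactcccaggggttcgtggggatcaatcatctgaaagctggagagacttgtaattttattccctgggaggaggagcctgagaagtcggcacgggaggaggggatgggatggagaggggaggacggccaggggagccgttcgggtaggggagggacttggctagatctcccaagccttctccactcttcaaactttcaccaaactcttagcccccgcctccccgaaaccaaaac
ASNS: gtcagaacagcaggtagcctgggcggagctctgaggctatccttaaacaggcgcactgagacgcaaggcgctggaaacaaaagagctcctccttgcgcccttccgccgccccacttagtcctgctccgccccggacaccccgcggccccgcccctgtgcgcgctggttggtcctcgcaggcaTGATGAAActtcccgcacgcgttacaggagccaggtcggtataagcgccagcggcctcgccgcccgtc
CHAC1: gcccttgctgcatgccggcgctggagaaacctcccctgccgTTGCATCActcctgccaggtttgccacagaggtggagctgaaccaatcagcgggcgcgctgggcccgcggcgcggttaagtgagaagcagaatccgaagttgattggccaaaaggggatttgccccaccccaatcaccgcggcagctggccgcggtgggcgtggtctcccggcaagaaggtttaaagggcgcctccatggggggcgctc
ASNS holds TGATGAAA, 68 to 61 bases before the start, and CHAC1 the reverse complement TTGCATCA, 209 to 202 bases before it. SLC6A9 has no match, which says only that these letters are not in this window. The element was found in 1104 of 35116 windows (3.14%). Among 34 named genes with a window it was found in 5, which were ASNS, ATF3, CHAC1, DCTD and GARS. Here too a gene counted if any of its windows matched, unlike the share of single windows.

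Of the 9 genes called lower with A8 alone, 2 were below vehicle in A8+ISRIB (TXNIP and TPRA1), 5 were within the margin and 2 were undecided. Their median log2 fold change was -0.32 in A8+ISRIB, -0.52 in A8 and 0.04 in DMSO+ISRIB, each over DMSO. HSPA1A and HSPA1B, near-identical copies of the inducible HSP70 chaperone whose reads may be shared, were at or above vehicle. HSPA1A had 2257, 2329 and 2196 CPM in A8+ISRIB, 1350, 1392 and 1532 CPM in A8, 2212 and 2088 CPM in DMSO+ISRIB, and 2144, 2050 and 2078 CPM in DMSO. The A8 libraries were low and all A8+ISRIB libraries were above those of DMSO, with a log2 fold change of 0.11 (95% interval -0.02 to 0.25). HSPA1B stood at 0.12 (95% interval -0.01 to 0.26). By the interaction term, the effect of A8 differed with ISRIB for HSPA1A, HSPA1B, PSAT1 and SLC6A9, 2 higher (0.0128% of genes) and 2 lower (0.0128%). DNAJB1, a co-chaperone of HSP70, stood at -0.01 (95% interval -0.13 to 0.11).

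HSPA8, the constitutive HSP70, differed from these. It had 3079, 3069 and 3472 CPM in A8+ISRIB, 2631, 2781 and 3061 CPM in A8, 4053 and 3920 CPM in DMSO+ISRIB, and 3733, 3882 and 3825 CPM in DMSO. Every A8+ISRIB library was below every DMSO library, at a log2 fold change of -0.25 (95% interval -0.40 to -0.10, adjusted p = 0.38 by edgeR), within the margin. SRSF11, a splicing factor of the SR family, had 289, 278 and 328 CPM in A8+ISRIB and 355, 398 and 366 CPM in DMSO (log2 fold change -0.32, 95% interval -0.47 to -0.18, adjusted p = 0.278 by edgeR). SRSF11 joined the 3 called genes when A8+ISRIB library 3 was left out. LOC101927883, an uncharacterised transcript, was undecided at -0.38, with -0.52 in A8 and -0.41 in DMSO+ISRIB.

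**Figure D3:**
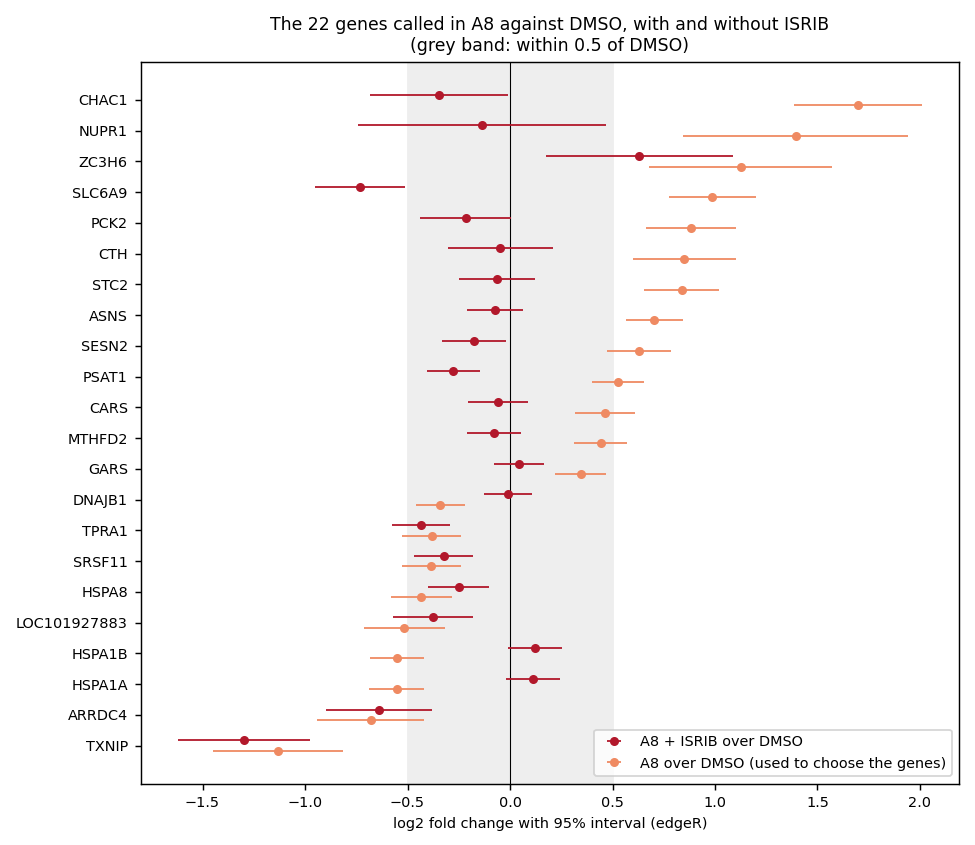
Log2 fold change with 95% interval (horizontal axis) of the 22 genes called in A8 against DMSO, for A8+ISRIB over DMSO (upper point of each pair) and A8 over DMSO (lower point). The grey band is the margin of 0.5 around DMSO, and 14 of the 22 A8+ISRIB intervals lie inside it without a call, while TXNIP and SLC6A9 lie below it.

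The integrated stress response as a whole stood at vehicle or slightly under it. Of the 54 genes listed for it, all of which passed the filter, 0 were called higher and 1 was called lower (SLC6A9), against 0% and 0.0192% of all genes. At an unadjusted p under 0.05, 1 was higher and 9 lower. The interval lay within the margin for 45, and 8 were undecided. Below 0 were 39 of the 54, against 48.9% of all genes tested, and all A8+ISRIB libraries were below all DMSO libraries in 13, against 6.57% of all genes. The lists here and below were chosen with earlier results of these data known, so such shares are a description only. Of the 54 genes, 12 were called higher in A8 against the same DMSO libraries. The median log2 fold change was -0.08 in A8+ISRIB, 0.34 in A8 and -0.14 in DMSO+ISRIB over DMSO, beside 0.00 over all genes tested in A8+ISRIB. Library by library, the median of the 54 relative to the DMSO mean was -0.06, -0.07 and -0.09 in A8+ISRIB and 0.04, 0.01 and -0.03 in DMSO. The 3 A8+ISRIB medians all lay under the 3 DMSO medians. Against A8, 22 of the 54 were called lower and 0 higher in A8+ISRIB, where 0.16% and 0.0192% of all genes were.

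Among the 19 regulators and effectors, 0 were called by edgeR's test (1 higher and 3 lower at an unadjusted p under 0.05), 12 lay within the margin and 7 were undecided. ATF4 itself had 746, 852 and 908 CPM in A8+ISRIB, 1094, 914 and 963 CPM in A8, 638 and 696 CPM in DMSO+ISRIB, and 897, 846 and 765 CPM in DMSO. Its A8+ISRIB and DMSO libraries overlapped throughout, at a log2 fold change of 0.00 or just under it (95% interval -0.18 to 0.18). ATF4 RNA does not show how much ATF4 protein was made. ATF3 stood at 0.05 and DDIT3, which encodes CHOP, at -0.04, both within the margin. TRIB3, a pseudokinase induced by CHOP, had all libraries under DMSO at -0.17 (95% interval -0.39 to 0.05).

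DDIT4, an inhibitor of mTORC1, was the listed regulator with the smallest p. It had 21.0, 23.5 and 22.1 CPM in A8+ISRIB, 59.9, 46.2 and 43.7 CPM in A8, 17.01 and 20.9 CPM in DMSO+ISRIB, and 38.1, 29.5 and 26.8 CPM in DMSO. The A8+ISRIB libraries were all under DMSO, with a log2 fold change of -0.50 (95% interval -0.78 to -0.22, adjusted p = 0.37 by edgeR). DDIT4 was called lower by edgeR's test without the filter on low counts (adjusted p = 0.00417). It was not called by DESeq2's Wald test (adjusted p = 0.0702) or by edgeR's test on the 6 libraries alone (adjusted p = 0.73). PPP1R15A, the stress-induced subunit of the eIF2 phosphatase, was the 1 regulator whose A8+ISRIB libraries all lay above DMSO. It had 40.1, 40.6 and 46.9 CPM in A8+ISRIB and 38.6, 35.2 and 32.9 CPM in DMSO (log2 fold change 0.26, adjusted p = 0.545 by edgeR), with A8 at 0.25. FGF21 and INHBE, both secreted factors, averaged 0.0468 and 0.101 CPM in A8+ISRIB and 0.152 and 0.246 CPM in DMSO, close to the level of 3 counts, and their intervals were too wide to place them.

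Genes of biosynthesis lay at or a little under vehicle. All 13 enzymes of amino acid and one-carbon synthesis had intervals within the margin, 12 of them below 0, with a median of -0.13. Besides PSAT1 and PCK2, the alanine transaminase GPT2 had all A8+ISRIB libraries under DMSO, at -0.13. ALDH18A1, an enzyme of proline synthesis, was the 1 above 0, at 0.02. The summed level of the 13 was 2056 to 2145 CPM in A8+ISRIB, 2546 to 2811 CPM in A8, 2019 to 2064 CPM in DMSO+ISRIB and 2190 to 2306 CPM in DMSO. The sums with both compounds were thus below every DMSO library, and the lowest of them overlapped those of DMSO+ISRIB.

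Of the 9 amino acid transporters, SLC6A9 was called lower, 7 lay within the margin and SLC7A11 was undecided. SLC3A2, the heavy chain shared by several transporters, had 174, 180 and 177 CPM in A8+ISRIB and 213, 201 and 195 CPM in DMSO (log2 fold change -0.20, adjusted p = 0.401 by edgeR). SLC1A5, a glutamine carrier, had 245, 248 and 250 CPM in A8+ISRIB and 273, 275 and 277 CPM in DMSO (log2 fold change -0.15, adjusted p = 0.548 by edgeR). Neither overlapped between the groups, and DMSO+ISRIB stood at -0.19 and -0.15 for the pair. SLC7A11, the cystine carrier, spread widely, with 7.501, 6.10 and 3.32 CPM in A8+ISRIB and 5.05, 6.70 and 8.94 CPM in DMSO. SLC38A2 and SLC7A3 were above 0, at 0.14 and 0.05. The summed level was 722 to 796 CPM in A8+ISRIB, 1036 to 1109 CPM in A8, 715 to 784 CPM in DMSO+ISRIB and 816 to 901 CPM in DMSO.

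The 13 genes of tRNA charging and export were at vehicle. All had intervals within the margin, from -0.09 for MARS to 0.07 for IARS and LARS, and the median was 0.02. Their summed level was 3824 to 3919 CPM in A8+ISRIB, 4409 to 4575 CPM in A8, 3757 to 3877 CPM in DMSO+ISRIB and 3811 to 3891 CPM in DMSO. The sums of A8+ISRIB and DMSO overlapped, and those of A8 lay above both.

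**Figure D4:**
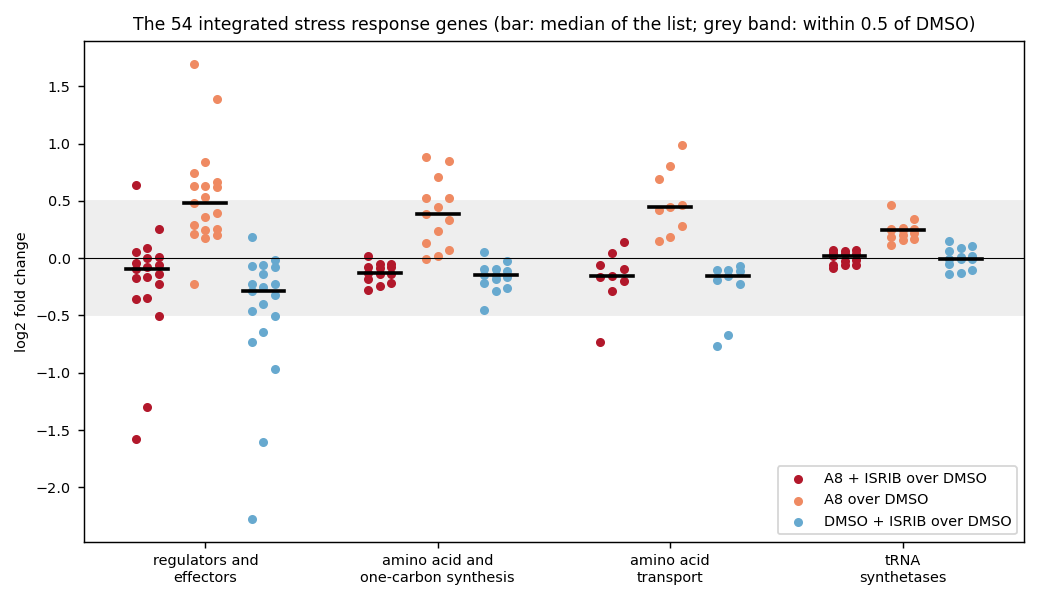
Log2 fold change over DMSO (vertical axis) of the 54 integrated stress response genes by list, for A8+ISRIB, A8 and DMSO+ISRIB, with 1 point per gene and the list median as a bar. The A8+ISRIB medians run from -0.15 for transport to 0.02 for the tRNA synthetases, and 45 of the 54 genes have their whole interval inside the grey margin of 0.5.

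The machinery that ISRIB and the kinases act on lay within the margin of vehicle, with a slightly higher summed level. All 13 genes of eIF2, eIF2B, the eIF2 kinases and the constitutive phosphatase subunit had intervals within the margin, with a median of 0.03, 0 called by edgeR's test and 2 higher at an unadjusted p under 0.05. EIF2AK1, the kinase HRI, had 195, 188 and 189 CPM in A8+ISRIB and 161, 168 and 171 CPM in DMSO, without overlap (log2 fold change 0.20, adjusted p = 0.373 by edgeR). DESeq2's Wald test called EIF2AK1 higher (adjusted p = 0.0458). EIF2AK2, the kinase PKR, stood at 0.14, also without overlap. In 2 of the 13 all A8+ISRIB libraries were above DMSO, against 5.79% of all genes. The summed level was 991 to 1013 CPM in A8+ISRIB, 976 to 1009 CPM in A8, 1001 to 1042 CPM in DMSO+ISRIB and 957 to 984 CPM in DMSO. Every A8+ISRIB sum was thus above every DMSO sum. The 5 subunits of eIF2B ranged from -0.08 (EIF2B4) to 0.18 (EIF2B3).

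Heat shock chaperones and chaperones of the endoplasmic reticulum differed in their values. The 14 listed heat shock genes include HSPD1 and HSPE1, which are mitochondrial chaperones. All 14 lay within the margin, with a median of -0.01 in A8+ISRIB, -0.17 in A8 and 0.06 in DMSO+ISRIB. Their summed level was 14069 to 14892 CPM in A8+ISRIB and 14579 to 14883 CPM in DMSO, which overlap. All 11 listed chaperones of the ATF6 arm of the unfolded protein response were below 0, with a median of -0.11. None was called (0 by edgeR, 5 at an unadjusted p under 0.05), and in 5 all A8+ISRIB libraries were under DMSO, against 6.57% of all genes. HSPA5, the chaperone BiP, had 451, 455 and 501 CPM in A8+ISRIB, 424, 466 and 489 CPM in A8, 590 and 595 CPM in DMSO+ISRIB, and 530, 565 and 579 CPM in DMSO. Libraries with A8 were low with or without ISRIB, at a log2 fold change of -0.25 for A8+ISRIB (95% interval -0.39 to -0.11, adjusted p = 0.37 by edgeR). HSP90B1, its partner GRP94, stood at -0.21 and HYOU1, a large chaperone of the same compartment, at -0.17. The summed level of the 11 was 3376 to 3606 CPM in A8+ISRIB, 3337 to 3602 CPM in A8, 3914 to 4063 CPM in DMSO+ISRIB and 3734 to 3917 CPM in DMSO.

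On the side above vehicle, 0 genes were called, and genes among those with the smallest p and a sufficient level are named as a description. EIF4A2, an RNA helicase of translation initiation, had 131, 129 and 130 CPM in A8+ISRIB and 108, 104 and 96.3 CPM in DMSO (log2 fold change 0.34, adjusted p = 0.197 by edgeR). A8 alone had 129, 125 and 126 CPM and DMSO+ISRIB 109 and 126 CPM, so its A8 libraries were high as well. DCTD, which supplies deoxyuridine monophosphate, had 20.6, 19.6 and 18.5 CPM in A8+ISRIB and 13.7, 16.6 and 14.2 CPM in DMSO (log2 fold change 0.40, adjusted p = 0.338 by edgeR). The authors' deposited table calls DCTD higher, at an adjusted p of 0.0162. The levels of DCTD in A8 and DMSO+ISRIB were close to those with both compounds, at 0.34 and 0.32 over DMSO. PTP4A3, outside the naming rule, had 164, 166 and 170 counts in A8+ISRIB and 158, 149 and 146 in A8. It had 83 and 82 counts in DMSO+ISRIB and 99, 110 and 99 in DMSO. The authors' deposited table calls PTP4A3 higher (log2 fold change 0.74, adjusted p of 0.0236). DESeq2's Wald test (adjusted p = 0.0128) and edgeR's test without the filter on low counts also called it. The main fit and the fit on the 6 libraries alone did not.

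JUN and ZCCHC12 were highest with both compounds together. JUN, a subunit of AP-1, had 429, 423 and 392 CPM in A8+ISRIB, 364, 336 and 332 CPM in A8, 328 and 333 CPM in DMSO+ISRIB, and 357, 296 and 323 CPM in DMSO. Its log2 fold change was 0.35 (95% interval 0.20 to 0.50, adjusted p = 0.197 by edgeR), and over A8 it was 0.27 (adjusted p = 0.34 by edgeR). ZCCHC12 had 73.3, 75.4 and 71.4 CPM in A8+ISRIB and 60.4, 52.1 and 45.2 CPM in DMSO (log2 fold change 0.48, adjusted p = 0.197 by edgeR). JUN and ZCCHC12 were called higher once DMSO library 1 was left out.

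Of the 16 immediate early genes, 0 were called in either direction by edgeR's test, with 4 higher and 1 lower at an unadjusted p under 0.05. In 5 of them all A8+ISRIB libraries were above DMSO, against 5.79% of all genes: JUN, MYC, KLF4, FOS and DUSP1. MYC had 207, 202 and 196 CPM in A8+ISRIB and 190, 179 and 182 CPM in DMSO (log2 fold change 0.14). KLF4 had 8.92, 8.79 and 7.98 CPM in A8+ISRIB and 7.28, 7.15 and 7.15 CPM in DMSO (log2 fold change 0.25). EGR1, a zinc-finger factor of the same class, went the other way, with 8.03, 7.03 and 10.6 CPM in A8+ISRIB and 9.79, 20.1 and 12.8 CPM in DMSO, and its groups overlapped. The summed level was 793 to 843 CPM in A8+ISRIB, 713 to 759 CPM in A8, 679 to 696 CPM in DMSO+ISRIB and 678 to 749 CPM in DMSO, and JUN made up much of it.

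Genes encoded by mitochondrial DNA stood highest in library 3 of A8+ISRIB, but not in that library alone. Their median log2 difference to the DMSO mean was 0.13, 0.30 and 0.76 in A8+ISRIB and 0.44, 0.16 and 0.56 in A8. It was 0.38 and -0.10 in DMSO+ISRIB, and -0.05, -0.19 and 0.24 in the DMSO libraries. All 13 were above 0 with a median of 0.48, beside 0.38 in A8 and 0.15 in DMSO+ISRIB. By edgeR's test 0 were called, and 10 were higher at an unadjusted p under 0.05, against 3.66% of all genes. Fitted without the filter on low counts, edgeR's test called 22 of 21245 genes higher. Among these were 9 of the 13 (ATP6, ATP8, COX1, CYTB, ND1, ND4, ND4L, ND5 and ND6), with ND5 at an adjusted p of 3.01e-06. DESeq2's Wald test did not call ND5 (adjusted p = 0.2155), nor did edgeR's test on the 6 libraries alone (adjusted p = 0.73). ND5, a subunit of respiratory complex I, had 3539, 4003 and 5107 CPM in A8+ISRIB and 2577, 2575 and 3312 CPM in DMSO, a log2 fold change of 0.58 (95% interval 0.29 to 0.87, adjusted p = 0.348 by edgeR). Without A8+ISRIB library 3 the log2 fold change of ND5 was 0.42 (adjusted p = 0.233 by edgeR). ND5 and CYTB were the 2 whose libraries did not overlap, where 5.79% of all genes had every A8+ISRIB library above DMSO. The summed level was 92496, 97165 and 134673 CPM in A8+ISRIB libraries 1 to 3 and 79183, 72528 and 96274 CPM in DMSO, so that DMSO library 3 reached that of A8+ISRIB library 1. The part of the share of mitochondrial counts in this result was not tested. The 13 genes together make up that share, so they are not 13 separate results.

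PMF1-BGLAP and DOK3 completed the low side. PMF1-BGLAP is a readthrough symbol that shares reads with PMF1, and it had 6.69, 7.03 and 6.98 CPM in A8+ISRIB and 7.05, 32.2 and 25.6 CPM in DMSO. DMSO library 1 lay with the treated libraries, so the log2 fold change of -1.65 rested on the other DMSO libraries. The main fit did not call it (adjusted p = 0.197 by edgeR). Without the filter on low counts, edgeR's test called it lower in spite of that spread (adjusted p = 5.01e-10). DOK3, an adaptor protein of immune signalling, had 8.59, 9.64 and 10.8 CPM in A8+ISRIB and 15.5, 14.0 and 14.3 CPM in DMSO (log2 fold change -0.59, adjusted p = 0.197 by edgeR), and the authors' deposited table calls it lower. A8 alone stood at -0.43 and DMSO+ISRIB at -0.22.

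All 5 tested targets of the aryl hydrocarbon receptor, out of 6 listed, were below 0, and all 5 were undecided. None was called (0 by edgeR's test, 2 at an unadjusted p under 0.05). The median was -0.30, beside -0.24 in A8 and 0.00 or just under it in DMSO+ISRIB. AHRR, the repressor of that receptor, had 12.9, 11.5 and 10.6 CPM in A8+ISRIB and 14.6, 14.9 and 13.8 CPM in DMSO (log2 fold change -0.30, adjusted p = 0.457 by edgeR). TIPARP, which ADP-ribosylates the receptor, had 12.4, 13.0 and 11.4 CPM in A8+ISRIB and 13.6, 14.7 and 17.1 CPM in DMSO (log2 fold change -0.30, adjusted p = 0.495 by edgeR). Neither overlapped, and in 3 of the 5 all A8+ISRIB libraries were under DMSO, against 6.57% of all genes. The summed level of the list was 25.2 to 28.4 CPM in A8+ISRIB, 29.7 to 30.1 CPM in A8, 32.7 to 33.7 CPM in DMSO+ISRIB and 32.6 to 35.05 CPM in DMSO. SREBF1, the transcription factor of fatty acid synthesis, had 37.7, 39.5 and 47.3 CPM in A8+ISRIB and 51.7, 53.8 and 48.7 CPM in DMSO (log2 fold change -0.31, adjusted p = 0.37 by edgeR). The enzymes it controls lay closer to vehicle, with FASN at -0.06 and SCD at -0.14, and 18 of 19 tested SREBP targets were within the margin.

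The series title names RIG-I, encoded by DDX58, a sensor of viral RNA. DDX58 had 2.09, 2.89 and 2.29 CPM in A8+ISRIB and 1.85, 1.97 and 2.93 CPM in DMSO, which overlap (log2 fold change 0.11, 95% interval -0.35 to 0.56). Of the 30 genes listed for its pathway and for interferon-stimulated genes, 21 were tested, 0 were called by edgeR's test (1 at an unadjusted p under 0.05) and 8 lay within the margin. IFNB1, IFNL1, OAS1, OAS2, RSAD2 and CCL5 had 0 counts in all 11 libraries. IFIT1 had 1.87, 1.99 and 2.38 CPM in A8+ISRIB and 2.74, 2.79 and 2.02 CPM in DMSO. The summed level of the list was 355 to 358 CPM in A8+ISRIB and 353 to 372 CPM in DMSO. HMOX1, an enzyme of haem breakdown and an NRF2 target, had 82.2, 96.9 and 94.6 CPM in A8+ISRIB and 78.2, 76.9 and 80.5 CPM in DMSO, without overlap (log2 fold change 0.22, adjusted p = 0.519 by edgeR). The other 9 NRF2 targets were not called.

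**Figure D5:**
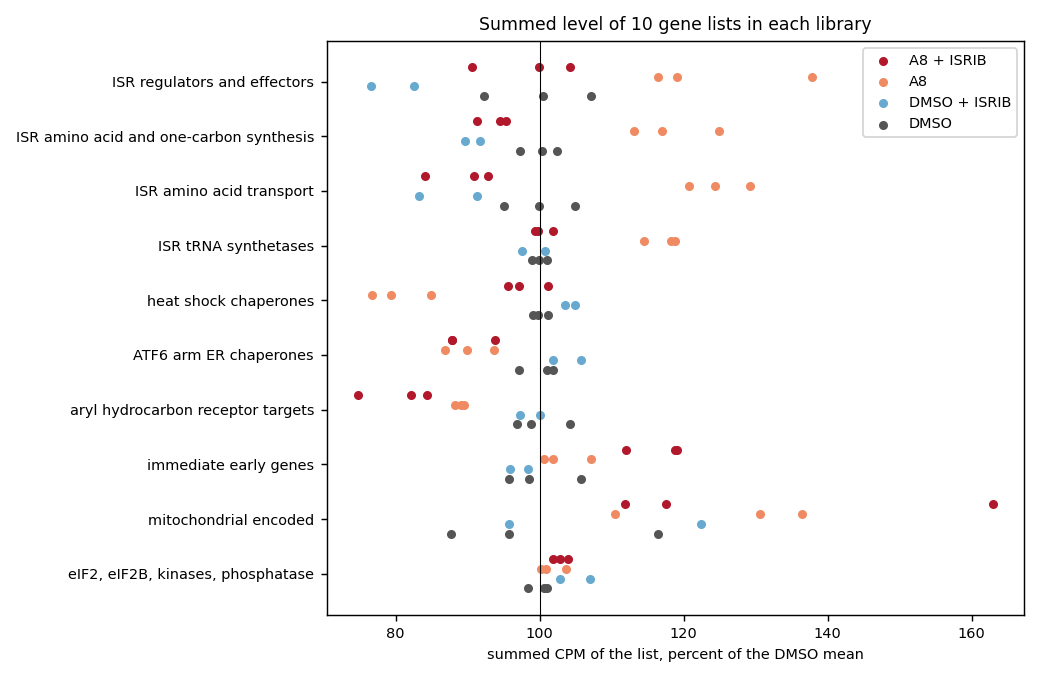
Summed CPM of 10 gene lists in each library as a percent of the DMSO mean (horizontal axis), for A8+ISRIB, A8, DMSO+ISRIB and DMSO from top to bottom within each list. The ATF6 arm and aryl hydrocarbon receptor lists lie at 87.8% to 93.8% and 74.9% to 84.4% of the DMSO mean in A8+ISRIB, and the tRNA synthetases at 99.4% to 102%.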

How the data were processed

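Strand-specific libraries of polyadenylated RNA were sequenced on a DNBSEQ instrument, per the labels' protocols. The authors deposited a table of whole-number counts per gene symbol (27671 genes, 6426 of them at 0 in all 11 libraries). They also deposited DESeq2 tables, whose columns are, per the file headers, a base mean (the signal averaged over libraries), a log2 fold change with its error, a Wald statistic (a score), a p-value and an adjusted p-value. GRCh37, DESeq and DESeq2 are named per the submitters' processing notes. Not given in the sources used here are the aligner, the counting software and its strand setting.

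Samples were grouped by their labelled treatment. The DMSO+ISRIB columns are numbered otherwise than the titles, so these libraries are called a and b. Replicates differed by more than sampling noise (chi-square per degree of freedom of at least 7.21 over genes), so none was treated as a copy. Counts, at least 34072107 in each library, were tested in edgeR 4.0.16 (R 4.3.3). The filter was filterByExpr, the scaling TMM, and group means of all 11 libraries were fitted together (glmQLFit, glmQLFTest). P-values were adjusted by Benjamini-Hochberg over 15591 genes, with calls at 0.05. Errors of fold changes were taken from the F statistic. A gene stood within vehicle when its 95% interval lay inside 0.5 (log2) of DMSO and it was not called.

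Named genes were up to 12 called genes in each direction with no overlap and a mean log2 CPM of 2 or more, all genes called in A8 against DMSO, up to 4 called members of each list, a fixed set of stress genes, and, where fewer than 6 were called in a direction, those with the smallest p. A gene that this rule names is not reported here. The members and the 23 lists (313 symbols, 283 tested) were chosen with earlier results of these data known. Genes outside this rule, such as PPP1R15A, AHRR and MYC, were named after their values were seen. Lists for the XBP1 arm, NF-kB, p53, snoRNA hosts, the cell cycle, SR factors and ribosomal proteins gave 0 calls by edgeR's test (ribosomal proteins had a median of 0.05 over 80 genes tested). Promoter windows are from RefSeq (GRCh38.p14), matched for 34 of 40 named genes. The fitting steps were tested on simulated data. Alternatives were another scaling, DESeq2 1.42.0, other filters, fewer libraries, a replicate block, GC offsets, a robust fit and each library left out.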

Additional observations from a re-analysis of the deposited data

Results flagged for a closer look

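The effect of A8 differed with ISRIB for 4 genes by the interaction term of edgeR's quasi-likelihood test (adjusted over 15591 genes). HSPA1A and HSPA1B, which may share reads, had differences of 0.626 and 0.638 in log2 fold change between the A8 effect with ISRIB (0.07 and 0.09) and without it (-0.55 for both, adjusted p = 0.0243 by edgeR). PSAT1 had a difference of -0.620 (adjusted p = 0.0243 by edgeR), with an A8 effect of -0.09 with ISRIB and 0.53 without. SLC6A9 had a difference of -0.950 (adjusted p = 0.0443 by edgeR), with an A8 effect of 0.04 with ISRIB and 0.99 without. The groups with ISRIB include DMSO+ISRIB, which has 2 libraries.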

How the results depend on the processing

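The 3 lower calls were kept under DESeq2 size factors, a minimum of 50 counts, GC offsets (4 lower), a robust fit and, chosen after seeing the data, 9 libraries without a block. The DESeq2 Wald test gave 11 higher and 21 lower, and no filter on low counts 22 and 18, of which 9 higher ones were mitochondrial genes. The others included EIF4A2, JUN and ZCCHC12 (higher) and ARRDC4, DDIT4, DOK3, EGR1, PMF1-BGLAP and SRSF11 (lower). The count of lower genes was 0 with only the 6 libraries compared (887 genes at an unadjusted p under 0.05) and 1 at a log2 fold change of at least 1. Deviations from group means had r of -0.503, -0.00076 and -0.490 between same-numbered libraries of A8+ISRIB and DMSO. Between A8 and DMSO, r was 0.422, 0.0211 and -0.0412. Libraries with different numbers reached similar values (0.502 for A8+ISRIB library 3 and DMSO library 1). Deviations within groups of 3 depend on one another, so these values cannot show whether the numbers pair the libraries. With a replicate block over 9 libraries 0 genes were lower (874 at an unadjusted p under 0.05), and 0 with GC offsets and block. Leaving out each library gave 0 to 4 lower and 0 to 3 higher. Lower calls fell to 0 without A8+ISRIB library 2, and to TXNIP alone without A8+ISRIB library 1, DMSO library 2 or DMSO library 3. The 3 higher genes without DMSO library 1 were JUN, PMF1 and ZCCHC12. The stress response median ranged from -0.0891 to -0.0525, and 39 to 45 of its genes lay within the margin. Values near 0 changed sign. ATF4 became 0.000451 with no filter, 0.000446 with 6 libraries, 0.000929 with the replicate block, 0.0097 with GC offsets and 0.0114 with both. Leaving out 1 library gave -0.0628 to 0.0742 for ATF4, -0.0274 to 0.0151 for DNAJB1, -0.0426 to 0.342 for DDX58, -0.176 to 0.0483 for CTH, -0.348 to 0.0215 for NUPR1 and -0.0199 to 0.149 for ATF3. The causes were not tested. Depth limits genes near 3 counts.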
